A study of Arabidopsis thaliana with 17 samples.

Results

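The genes described here encode enzymes and expansins that build, loosen and remodel the plant cell wall, measured in shoots and roots of Arabidopsis thaliana with and without NBR1, a selective autophagy cargo receptor. Members were taken by gene symbol from the annotation of the array, as xyloglucan endotransglucosylase/hydrolases (XTH), expansins (EXPA, EXPB, EXLA and EXLB), pectin methylesterases (PME), cellulose synthases (CESA), cellulose synthase-like proteins (CSL), galacturonosyltransferases (GAUT and GATL) and fasciclin-like arabinogalactan proteins (FLA), and only probe sets with a single symbol were used. The rule found 41 of 28583 probe sets, which stand for 40 genes. They were 23 probe sets of expansins (14 EXPA, 5 EXPB, 3 EXLA and 1 EXLB), 9 of XTH genes, 8 of CSL genes and 1 of a PME gene, while no probe set carried a CESA, GAUT, GATL or FLA symbol. RefSeq (TAIR10.1) lists 146 genes whose symbols fit the same rule, so most of the family members were not analysed here.

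The samples were 17 Affymetrix Arabidopsis Gene 1.1 ST arrays, each hybridised with RNA of 1 sample. KO1 and KO3 are homozygous lines in the Col-0 background that carry a deletion made in NBR1 with CRISPR/Cas9, from which the editing transgene was crossed out, and WT is the parental Col-0. Each line is represented by shoots and by roots of plants grown hydroponically for 4 weeks under short days of 8 h light and 16 h dark, and each sample pooled portions of at least 3 plants. There were 3 arrays of KO1 shoots, 3 of KO3 shoots, 3 of WT shoots, 3 of KO1 roots, 3 of KO3 roots and 2 of WT roots (replicates 1 and 3). All values below are log2 signals as deposited, so that a difference of 1 is a 2-fold change, and levels are compared only within a probe set. Organs are mixtures of cell types, so fewer cells of a type and less RNA per cell cannot be told apart in these data.

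The primary wall of a growing plant cell is a mesh of cellulose fibres tethered by xyloglucan and embedded in pectin. XTH enzymes cut and rejoin xyloglucan chains, expansins loosen the contacts between wall polymers without cutting them, and CSL proteins synthesise backbones of hemicelluloses and related glucans. In roots, several of these genes are known for their expression in the epidermal cells that form root hairs, where the wall expands at the tip.

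The KO arrays could be told apart from the WT arrays by the targeted gene itself, but in shoots KO1 and KO3 overlapped. NBR1 signals were 1.67, 1.52 and 1.71 in KO1 shoots, 1.81, 1.65 and 1.54 in KO3 shoots, against 5.73, 6.44 and 6.37 in WT shoots. In roots they were 3.70, 3.26 and 3.70 in KO1, 3.82, 4.59 and 3.87 in KO3, and 7.41 and 7.23 in WT, so no KO array overlapped with the WT arrays of its organ. Of 26 green tissue markers listed, 2 were matched to a probe set with a single symbol (the light-harvesting genes LHCB4.1 and LHCB4.2). They were 29.3-fold and 145-fold higher in shoots than in roots. None of 26 listed root markers was matched to such a probe set. The array of KO1 shoots replicate 1 stood apart: the standard deviation of its signals was 1.41, against 1.94 to 2.07 on the other 8 shoot arrays, and of 5542 probe sets with a median shoot signal of at least 4 it gave the lowest of the 9 shoot signals for 95.6%, all 7 such members included. The main counts and tests that use it are therefore also given without it. Among the roots, WT roots replicate 1 had the lowest spread (1.91, against 1.95 to 2.05), and WT roots rest on 2 arrays.

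The clearest pattern among the cell wall genes was the difference between organs. At a Benjamini-Hochberg adjusted p under 0.05 in limma and a difference of at least 2-fold, 18 of 41 members were higher in roots and 2 were higher in shoots, with the 3 lines averaged. Of all probe sets, 32.5% were higher in roots and 7.69% were higher in shoots by the same rule. These counts depended on the scaling of the arrays, since the median signal was between 1.72 and 1.85 on shoot arrays and between 2.61 and 2.67 on root arrays, and it is not stated whether the organs were normalised together. After the median of each array was subtracted, 12 members were higher in roots and 10 in shoots, against 14.9% and 17.8% of all probe sets. After quantile normalisation over all arrays 14 were higher in roots and 7 in shoots, against 14.7% and 12.4%. The direction of 12 members differed between the scalings. The same 14 members, 12 higher in roots and 2 higher in shoots, passed under all 3 scalings. The share of all probe sets that passed under all 3 was not counted. Whether 14 of 41 differs from that share was therefore not tested. The following account is limited to these 14 members unless it says otherwise.

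**Figure D1:**
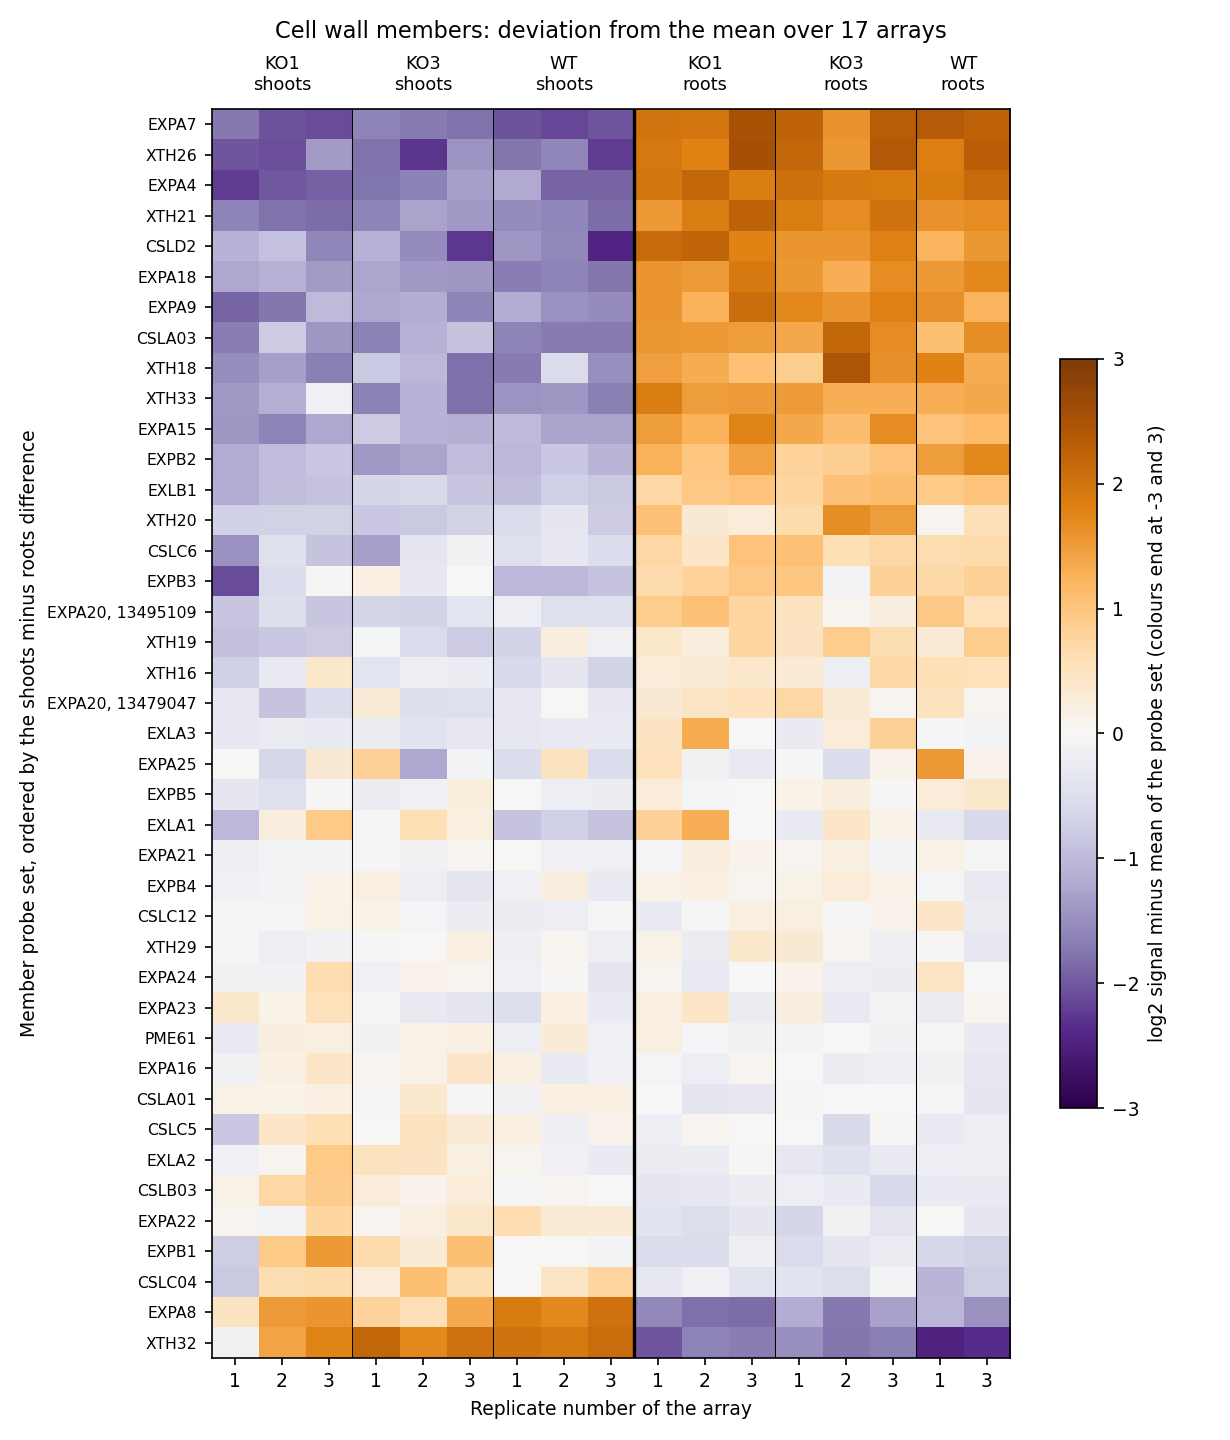
Log2 signal of each of the 41 member probe sets (rows) on each of the 17 arrays (columns, numbered by replicate within KO1, KO3 and WT shoots and then KO1, KO3 and WT roots), as the deviation from the mean of the probe set. The upper rows are lower in all shoot arrays than in all root arrays, XTH32 and EXPA8 at the bottom show the opposite, and KO1 shoots replicate 1 is paler or lower than its neighbours in several rows.

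The expansins with the largest organ differences belonged to the alpha group, which loosens walls at acidic pH. EXPA7, which is known for its expression in root hair cells, had signals of 1.24 to 1.78 in shoots (median 1.36, n = 9) and 5.0 to 5.89 in roots (median 5.63, n = 8), a difference of -4.08 ± 0.12 (SE), or 16.9-fold higher in roots (limma adjusted p = 4.97e-14). EXPA18, also known from root hair cells, had 0.99 to 1.61 in shoots and 4.02 to 4.65 in roots, and was 8.15-fold higher in roots. Neither gene had a shoot array that reached a root array, and both were below the median of each shoot array and above the median of each root array. EXPA4 had 2.18 to 3.19 in shoots and 6.26 to 6.58 in roots (13.5-fold), EXPA9 had 0.92 to 1.83 in shoots and 4.05 to 4.89 in roots (8.07-fold), and EXPA15 had 1.37 to 2.2 in shoots and 3.99 to 4.76 in roots (5.77-fold). Of the beta expansins, EXPB2 was 4.91-fold higher in roots, with 0.99 to 1.54 in shoots and 3.17 to 4.1 in roots.

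Among the XTH genes, XTH26, XTH21, XTH18 and XTH33 were higher in roots. XTH26, which is known to act in root hairs, had 1.53 to 2.44 in shoots (median 2.01) and 5.37 to 6.34 in roots (median 5.86), and was 15.0-fold higher in roots (limma adjusted p = 1.11e-11). XTH21 had 0.95 to 1.51 in shoots and 4.33 to 5.03 in roots (10.5-fold), XTH18 had 0.72 to 1.99 in shoots and 3.42 to 4.99 in roots (7.04-fold), and XTH33 had 1.54 to 3.23 in shoots and 4.66 to 5.21 in roots (6.70-fold). XTH19, which lies next to XTH18 in the genome, differed by 2.1-fold as deposited, with shoot and root arrays that touched at 1.93, and its organ difference was under 2-fold under both other scalings. XTH18 and XTH19 are closely related, and how far their probes hybridise with each other's transcript was not tested.

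The CSL genes with an organ difference were CSLD2 and CSLA03. CSLD2, a member of the group that is needed for tip growth of root hairs, had 2.02 to 3.55 in shoots and 5.68 to 6.68 in roots, and was 9.46-fold higher in roots (limma adjusted p = 1.35e-10). CSLA03, of the group that synthesises glucomannan backbones, had 1.70 to 2.6 in shoots and 4.49 to 5.55 in roots, and was 7.64-fold higher in roots. CSLC04, the major synthase of the xyloglucan backbone, was above the array median on all 17 arrays, as were CSLC5 and CSLC6. CSLC04 had 4.95 to 6.86 in shoots and 4.70 to 5.68 in roots, and was 1.89-fold higher in shoots as deposited, under the 2-fold limit. It was 3.36-fold higher in shoots after array medians were subtracted, 2.97-fold after quantile normalisation and 2.51-fold on the WT arrays alone, each of them past the limma test. Only PME61 carried a PME symbol of the rule, and pectin genes with other symbols, such as PMEPCRF, were read from a separate list. PME61 was below the median of all 17 arrays (0.87 to 1.43 in shoots and 0.88 to 1.32 in roots). It did not pass the test as deposited (limma adjusted p = 0.438). Its organ difference stayed under 2-fold under the other scalings as well, at 1.89-fold with array medians subtracted and 1.13-fold after quantile normalisation.

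The opposite direction was found in 2 genes. XTH32 had 4.56 to 6.87 in shoots (median 6.59) and 2.21 to 3.20 in roots (median 2.96), a difference of 3.61 ± 0.20, or 12.2-fold higher in shoots (limma adjusted p = 1.55e-10). EXPA8, an alpha expansin, had 4.29 to 5.83 in shoots (median 5.33) and 1.98 to 2.77 in roots (median 2.3), and was 6.89-fold higher in shoots (limma adjusted p = 2.94e-10). In both genes the lowest shoot signal came from KO1 shoots replicate 1 and still lay above all root signals.

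The remaining members passed under fewer scalings or under none. EXLB1, XTH20, CSLC6, EXPB3 and the second probe set of EXPA20 (13495109) were 2.28- to 3.45-fold higher in roots as deposited, and each missed the 2-fold limit under at least 1 other scaling. The other probe set of EXPA20 (13479047) differed by 1.61-fold as deposited. A further 8 members were higher in shoots past the limits only when the arrays were rescaled. Of these EXPB1 (3.28-fold with array medians subtracted and 3.81-fold after quantile normalisation), CSLC04, EXPA22 (2.71- and 2.5-fold), CSLC5 (2.15- and 2.40-fold) and EXLA2 (2.35- and 2.12-fold) passed under both other scalings. EXPA16 (2.09-fold), CSLA01 (2.12-fold) and CSLB03 (2.62-fold) passed only with array medians subtracted. EXPA21 to EXPA25 lie close together on the same chromosome, and none of them except EXPA22 differed by 2-fold between the organs under any of the 3 scalings. Counted without a test on the deposited scale, 16 members had all shoot arrays below all root arrays and 3 had all shoot arrays above, against 37.3% and 7.03% of all probe sets.

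**Figure D2:**
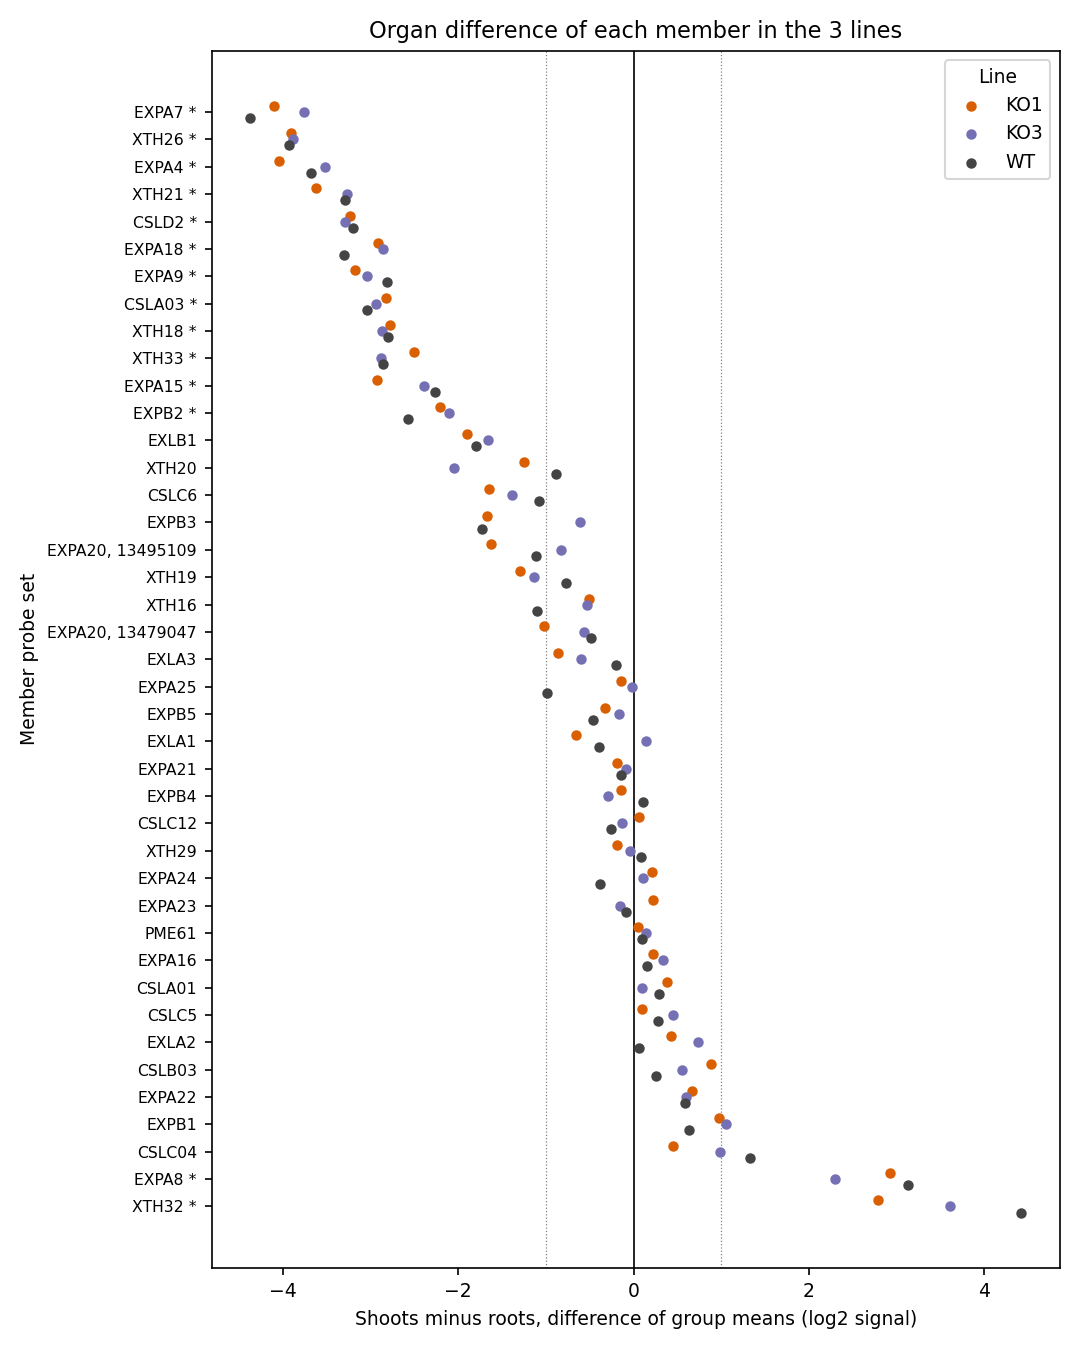
Difference of the group means, shoots minus roots, in log2 signal for each member (rows), shown separately for KO1, KO3 and WT, with dotted lines at a 2-fold difference in each direction and an asterisk at the 14 members that passed under all 3 scalings. The points of the 3 lines lie on the same side of 0 for each of the 14 members, from -4.38 for EXPA7 in WT to 4.42 for XTH32 in WT.

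The organ differences were seen in each line. XTH26 differed by -3.91 in KO1, -3.88 in KO3 and -3.93 in WT, and CSLD2 by -3.24 in KO1, -3.29 in KO3 and -3.20 in WT. XTH32 varied more, with 2.79 in KO1, 3.61 in KO3 and 4.42 in WT. No member passed the limma test for a KO effect that differed between shoots and roots at an adjusted p under 0.05, in KO1 (0.483% of all probe sets passed) or in KO3 (0.175%). At an unadjusted p under 0.05 there were 3 members in KO1, against 11.4% of all probe sets, and 2 in KO3, against 6.47%. The lowest adjusted p was that of XTH32 in KO1, where the effect in shoots minus that in roots was -1.64 ± 0.50 (adjusted p = 0.213), and in KO3 that of XTH20 with -1.16 ± 0.37 (adjusted p = 0.475). Without KO1 shoots replicate 1 there were still no members past the adjusted p, and 6 in each line at the unadjusted p, against 11.4% of all probe sets in KO1 and 9.94% in KO3. The KO1 value of XTH32 was then -1.07 ± 0.25 (limma adjusted p = 0.0511).

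Deletion of NBR1 was compared with WT within each organ to ask whether cell wall genes differ in its absence. No member passed an adjusted p under 0.05 in limma in any of the 4 comparisons, where 0.378% of all probe sets passed in KO1 shoots, 0.185% in KO3 shoots, 0.122% in KO1 roots and 0.245% in KO3 roots. An unmoderated linear model gave 0 members as well, but other settings did not. Array weights gave 2 in KO1 shoots, and a fit of only the groups compared gave 2 in KO3 shoots. Without KO1 shoots replicate 1 there were 3 in KO1 shoots and 1 in KO3 shoots, as described below. In the main fit, the members at an unadjusted p under 0.05 were 6 in KO1 shoots, 4 in KO3 shoots, 6 in KO1 roots and 7 in KO3 roots. The shares of all probe sets were 10.4%, 5.15%, 8.92% and 12.0%. The median log2 fold change of the members was 0.02 in KO1 shoots, 0.09 in KO3 shoots, 0.07 in KO1 roots and 0.04 in KO3 roots, and that of all probe sets was -0.08, 0.01, 0.01 and 0.01.

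A looser rule, an unadjusted p under 0.05 together with a change of 1.5-fold or more, follows the criteria used in the study and does not correct for the number of genes. By this rule 2 members were lower in KO1 shoots (XTH32 and XTH19) and none higher, against 6.92% and 0.406% of all probe sets. In KO3 shoots EXLA1 was higher and EXPA8 lower, against 1.36% and 1.71%. In KO1 roots EXLA1, XTH32, CSLD2 and CSLC04 were higher and none was lower, against 2.0% and 1.42%. In KO3 roots XTH20 and XTH32 were higher and EXPB2 and EXPA25 lower, against 2.63% and 2.07%.

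**Figure D3:**
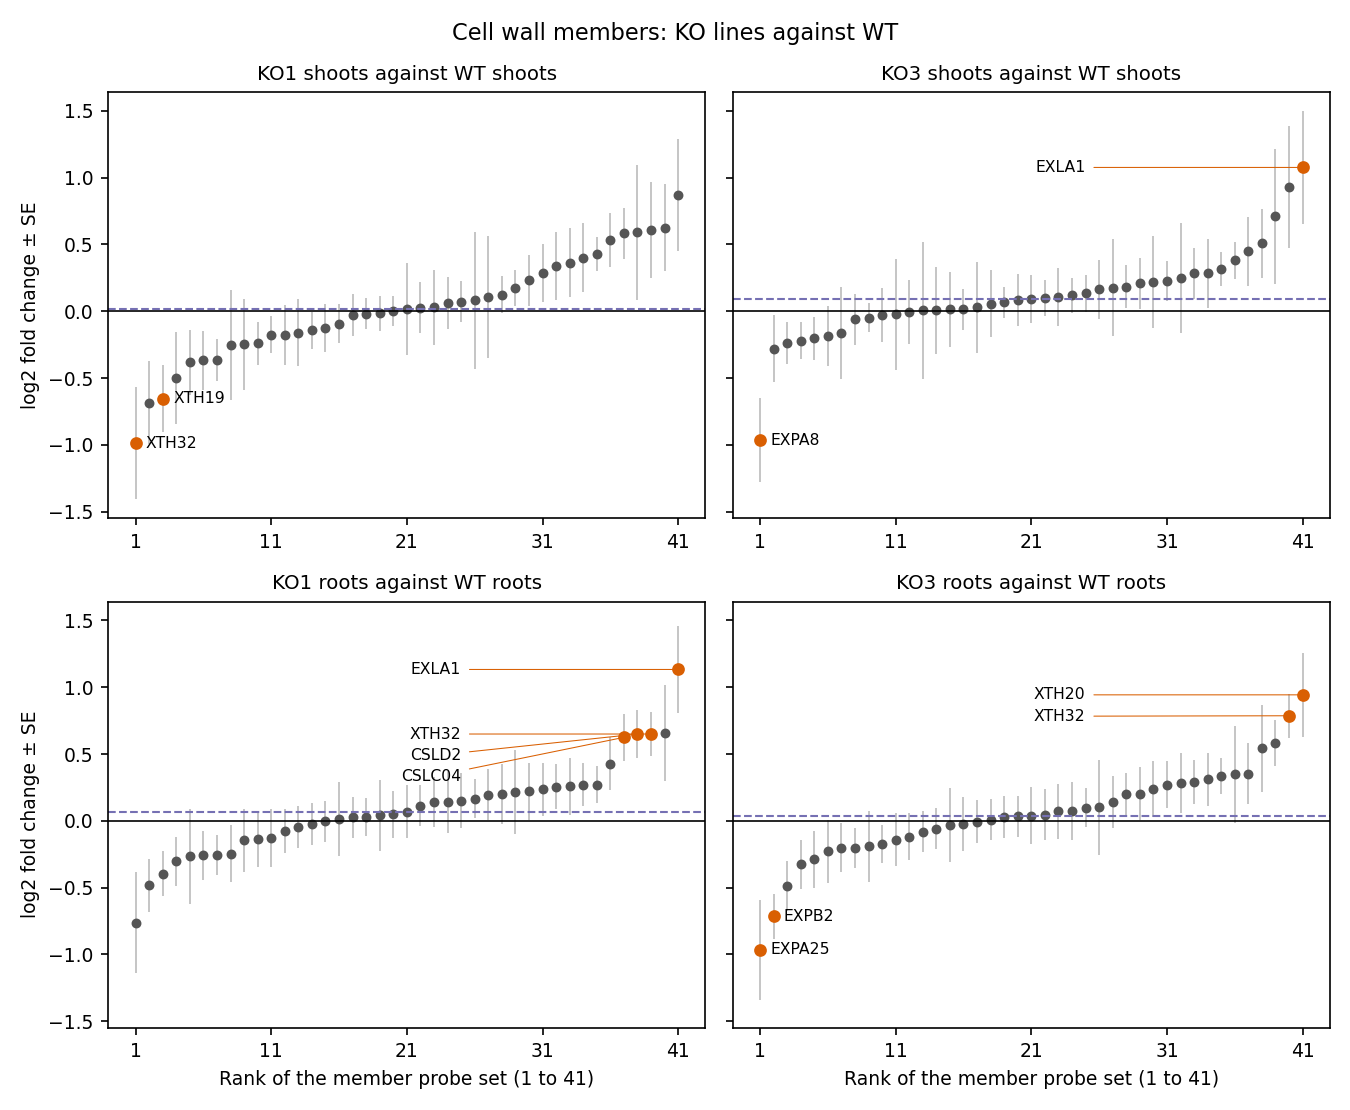
Log2 fold change (± SE) of each of the 41 members in KO1 and KO3 against WT, in shoots (upper panels) and roots (lower panels), ordered by size within each panel, with the median of the members as a dashed line. The named orange points reached an unadjusted p under 0.05 and 1.5-fold, most other members lie within 0.5 of 0, and no member passed the adjusted test.

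EXLA1, an expansin-like gene for which no wall-loosening activity is established, was the member that stood highest against WT in 3 of the comparisons. In shoots its signals were 3.18, 4.42 and 5.11 in KO1, 4.15, 4.80 and 4.38 in KO3, and 3.32, 3.47 and 3.31 in WT. All 3 KO3 arrays and KO1 replicates 2 and 3 lay above the WT arrays, whereas KO1 replicate 1 lay below them. The log2 fold change in shoots was 0.87 ± 0.42 for KO1 (limma adjusted p = 0.511). That of KO3 was 1.08 ± 0.42 (adjusted p = 0.882). In roots the signals were 5.01, 5.49 and 4.18 in KO1, 3.95, 4.63 and 4.33 in KO3, and 3.92 and 3.60 in WT. Each KO root array thus lay above both WT arrays, with a mean difference of 1.13 ± 0.33 for KO1 (limma adjusted p = 0.293). The difference for KO3 was 0.54 ± 0.33 (adjusted p = 0.548).

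Without KO1 shoots replicate 1, calls appeared in the shoots. The KO3 differences from WT do not use this array, but their SE and p-values do, since all shoot lines share the estimate of the spread. In KO1 shoots, then represented by 2 arrays, 3 members passed an adjusted p under 0.05, all of them higher than WT, where 0.203% of all probe sets were higher and 0.983% lower. EXLA1 was 1.40 ± 0.24 higher (limma adjusted p = 0.0275), EXPB1 1.26 ± 0.25 higher (adjusted p = 0.0464) and CSLB03 0.81 ± 0.14 higher (adjusted p = 0.0318). In KO3 shoots EXPB3 passed at 0.93 ± 0.18 (adjusted p = 0.0465), where 0.315% of all probe sets were higher, while EXLA1 (adjusted p = 0.0518) and EXPA8 (adjusted p = 0.0583) did not pass. The looser rule then gave 7 members in KO1 shoots, all higher than WT, against 1.79% of all probe sets higher and 4.14% lower. In KO3 shoots it gave 3 higher and 1 lower, against 2.46% and 2.35%. EXPB1, EXPB3 and CSLB03 are described because of these values.

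EXPB1 and EXPB3 are beta expansins, the group best known from grass pollen. EXPB3 had 4.21, 5.79 and 6.34 in KO1 shoots, 6.48, 6.01 and 6.31 in KO3 shoots, against 5.29, 5.29 and 5.43 in WT shoots. EXPB1 had 2.93, 4.63 and 5.24 in KO1 shoots, 4.37, 4.00 and 4.79 in KO3 shoots, against 3.71, 3.71 and 3.61 in WT shoots. In both genes 5 of the 6 KO shoot arrays lay above all WT shoot arrays, and the exception was again KO1 replicate 1. In roots EXPB3 had 6.97, 7.10 and 7.27 in KO1, 7.28, 6.23 and 7.13 in KO3, and 7.0 and 7.14 in WT, which overlapped. In roots EXPB1 also lay above WT on all 6 KO arrays, by 0.26 in KO1 and 0.29 in KO3. CSLB03, of a CSL group whose product is not established, had 1.45, 2.02 and 2.21 in KO1 shoots, 1.58, 1.41 and 1.57 in KO3 shoots, against 1.28, 1.36 and 1.29 in WT shoots. All 6 KO shoot arrays of CSLB03 were above the WT shoot arrays, but only KO1 replicates 2 and 3 exceeded the median of their own array.

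**Figure D4:**
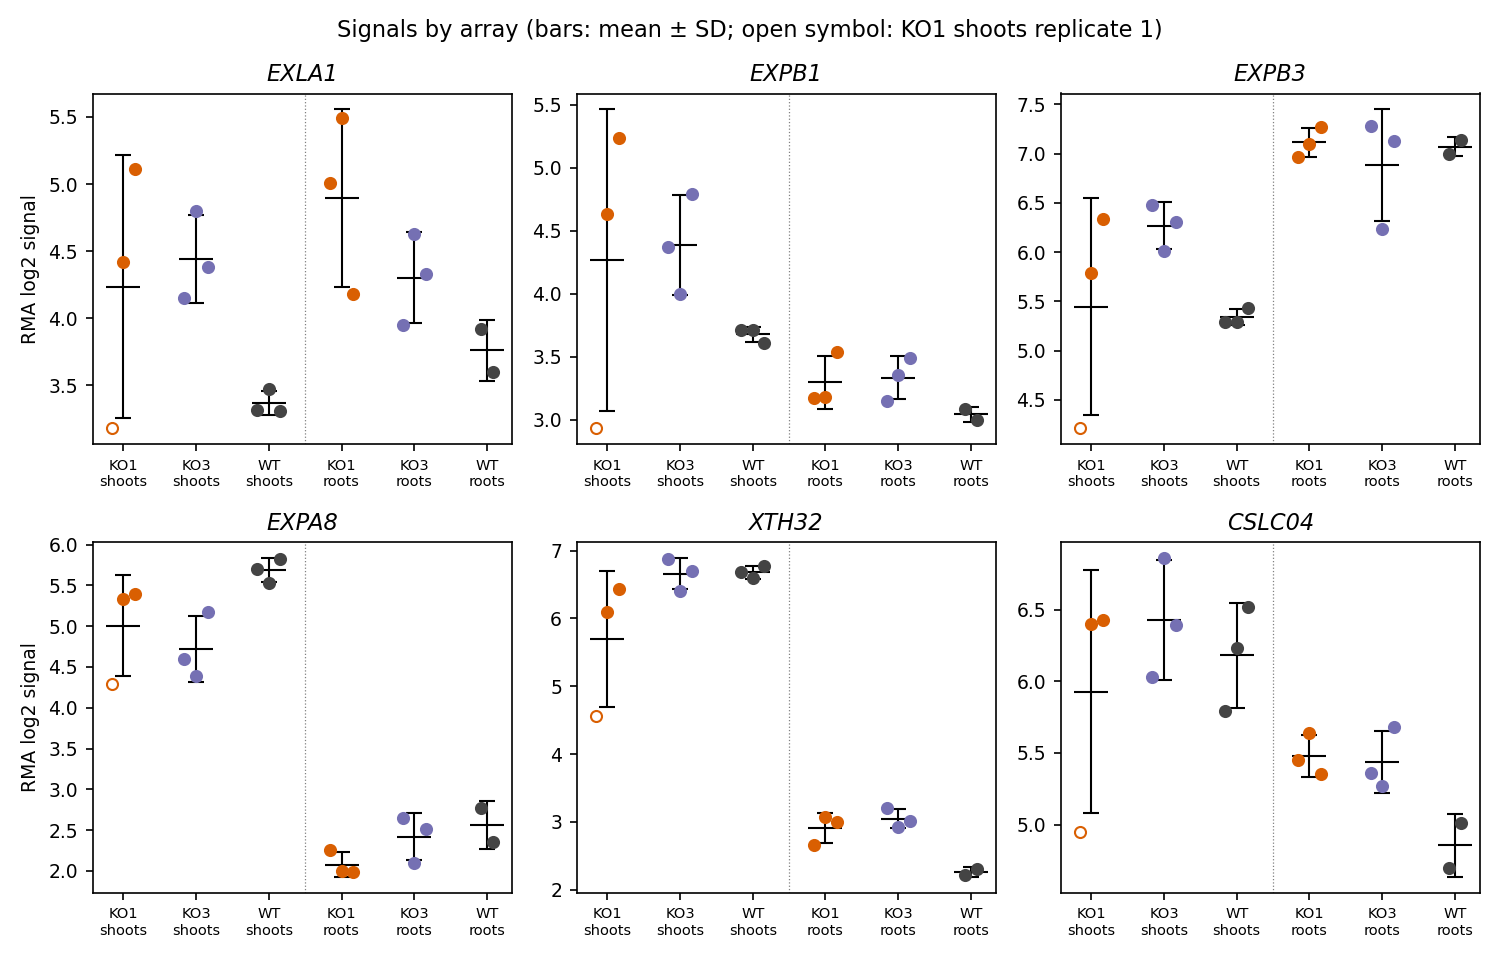
RMA log2 signals of EXLA1, EXPB1, EXPB3, EXPA8, XTH32 and CSLC04 on each array of KO1, KO3 and WT shoots and KO1, KO3 and WT roots, with the mean and SD of each group. The open symbol, KO1 shoots replicate 1, is the lowest shoot array in all 6 panels, and in XTH32 all KO root arrays lie above the 2 WT root arrays.

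EXPA8 was on the other side of WT in shoots. Its signals were 4.29, 5.33 and 5.39 in KO1 shoots, 4.60, 4.39 and 5.17 in KO3 shoots, against 5.70, 5.53 and 5.83 in WT shoots. All 6 KO arrays lay below the WT arrays, with a difference of -0.97 ± 0.31 for KO3 (limma adjusted p = 0.718). The difference for KO1 was -0.68 ± 0.31 (adjusted p = 0.497). Without KO1 replicate 1 the KO1 value was -0.33 ± 0.22, and after quantile normalisation within the shoots it was 0.00, whereas the KO3 value stayed at -0.92 under that scaling.

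XTH32 in KO1 lay below WT in shoots and above WT in roots, a difference that did not pass its test, as given above. In shoots it had 4.56, 6.09 and 6.44 in KO1, 6.87, 6.41 and 6.70 in KO3, and 6.68, 6.59 and 6.78 in WT. The KO1 arrays were all below WT, by -0.99 ± 0.42 (limma adjusted p = 0.466), and without replicate 1 by -0.42 ± 0.18 (adjusted p = 0.452), while the KO3 arrays overlapped with WT. Under the alternative settings other than leaving out an array, the KO1 difference in shoots lay between -0.99 and -0.20. In roots it had 2.66, 3.07 and 3.00 in KO1, 3.20, 2.92 and 3.02 in KO3, and 2.21 and 2.31 in WT. All 6 KO root arrays were above both WT root arrays, and the mean difference was 0.65 ± 0.16 for KO1 (limma adjusted p = 0.216). For KO3 it was 0.79 ± 0.16 (adjusted p = 0.089, the lowest of any member against WT). Both KO lines share the same 2 WT root arrays.

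In roots, CSLC04 and CSLD2 also lay above WT. CSLC04 had 5.45, 5.64 and 5.35 in KO1 roots, 5.36, 5.27 and 5.68 in KO3 roots, against 4.70 and 5.01 in WT roots, which gave a difference of 0.63 ± 0.17 for KO1 (limma adjusted p = 0.276). The difference of 0.58 ± 0.17 for KO3 (adjusted p = 0.231) lay just under the 1.5-fold limit. CSLD2 had 6.58, 6.68 and 6.24 in KO1 roots, 6.05, 6.04 and 6.27 in KO3 roots, against 5.68 and 6.02 in WT roots. Neither gene overlapped with WT in either line, but the lowest KO3 array of CSLD2 exceeded the higher WT array by little, and its KO3 difference was 0.27 ± 0.18 (adjusted p = 0.584). Its KO1 difference was 0.65 ± 0.18 (limma adjusted p = 0.262). When WT roots replicate 1 was left out, the KO1 differences were 0.47 for CSLC04 and 0.48 for CSLD2, under the 1.5-fold limit.

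Of the other genes past the looser rule, XTH20 and EXPA25 depended on WT roots replicate 1, and XTH19 was dim. XTH20 had 2.52, 1.8 and 1.73 in KO1 roots, 2.15, 3.13 and 2.95 in KO3 roots, against 1.55 and 2.05 in WT roots, and the KO3 difference of 0.94 ± 0.31 (limma adjusted p = 0.285) became 0.69 ± 0.40 (unadjusted p = 0.12) without WT replicate 1. EXPB2 had 3.62, 3.34 and 3.81 in KO1 roots, 3.17, 3.24 and 3.40 in KO3 roots, against 3.87 and 4.1 in WT roots. All 6 KO arrays of EXPB2 were below WT, with a difference of -0.40 ± 0.17 for KO1 (limma adjusted p = 0.53). The difference for KO3 was -0.72 ± 0.17 (adjusted p = 0.144), and it lay between -0.83 and -0.60 with each root array left out in turn. EXPB2 was above the array median on all 8 root arrays. EXPA25 had 3.67, 3.02 and 2.86 in KO1 roots, 3.10, 2.61 and 3.23 in KO3 roots, against 4.66 and 3.23 in WT roots, and its KO3 difference of -0.97 ± 0.38 (adjusted p = 0.341) became -0.25 ± 0.33 without WT replicate 1. XTH19 had 0.78, 0.89 and 0.93 in KO1 shoots, 1.65, 1.15 and 0.92 in KO3 shoots, against 1.05, 1.93 and 1.58 in WT shoots. Only WT replicate 2 exceeded the median of its own array.

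EXPA7, EXPA18 and XTH26 had large organ differences, and their KO roots were not separated from WT roots. In roots EXPA7 had 5.37, 5.36 and 5.89 in KO1, 5.64, 5.0 and 5.73 in KO3, and 5.75 and 5.62 in WT. XTH26 had 5.74, 5.60 and 6.34 in KO1 roots, 5.98, 5.37 and 6.19 in KO3 roots, against 5.64 and 6.12 in WT roots. EXPA18 had 4.31, 4.25 and 4.65 in KO1 roots, 4.28, 4.02 and 4.41 in KO3 roots, against 4.26 and 4.45 in WT roots. The KO and WT roots overlapped in all 3 of these genes in both lines. This did not hold for every member with a large organ difference. All 6 KO root arrays lay above WT in CSLD2 and XTH32 and below WT in EXPB2, as given above. In EXPA15 and XTH33 the KO1 root arrays lay above WT, while the KO3 root arrays overlapped with WT. In XTH21 the KO3 root arrays lay above WT, and those of KO1 overlapped with WT. In EXPA8 the KO1 root arrays lay below WT, and those of KO3 overlapped with WT. In shoots, where it was below the median of each array, EXPA18 had 1.5, 1.61 and 1.35 in KO1, 1.48, 1.33 and 1.31 in KO3, and 1.05, 1.13 and 0.99 in WT. All 6 KO shoot arrays of EXPA18 were above WT, with differences under the 1.5-fold limit of 0.43 ± 0.13 for KO1 (limma adjusted p = 0.274) and of 0.32 ± 0.13 for KO3 (adjusted p = 0.895).

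Counted without a test, members whose KO arrays all lay above or all below WT numbered 3 above and 6 below in KO1 shoots (3.38% and 13.5% of all probe sets), and without KO1 replicate 1 they numbered 10 above and 6 below (10.5% and 15.8%). In KO3 shoots there were 7 above and 1 below (6.73% and 6.66%). In KO1 roots there were 9 above and 3 below (12.1% and 11.5%), and in KO3 roots 9 above and 4 below (13.2% and 11.8%). By family, at the looser rule and over the 4 comparisons, XTH genes gave 2 lower in KO1 shoots, none in KO3 shoots, 1 higher in KO1 roots and 2 higher in KO3 roots, of 9. CSL genes gave 2 higher, both in KO1 roots, of 8, and none in the other comparisons. Expansins gave 1 higher and 1 lower in KO3 shoots, 1 higher in KO1 roots and 2 lower in KO3 roots, of 23, and PME61 none, with log2 fold changes of 0.04 to 0.11. The shares of all probe sets by this rule were those given above, 6.92% lower in KO1 shoots, 1.36% higher and 1.71% lower in KO3 shoots, 2.0% higher in KO1 roots, and 2.63% higher and 2.07% lower in KO3 roots.

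The 2 deletion lines were also set against each other. No member passed an adjusted p under 0.05 in limma between KO1 and KO3, in shoots (0.0% of all probe sets) or in roots (0.0035%), and 3 members in each organ had an unadjusted p under 0.05, against 6.44% of all probe sets in shoots and 3.3% in roots. Without KO1 shoots replicate 1 there were 7 such members in shoots, against 4.94%, and again none past the adjusted p. The largest gap in shoots was that of XTH32 (-0.96 ± 0.42, KO1 minus KO3), and without KO1 replicate 1 it was -0.40 ± 0.18. Same-numbered KO1 and KO3 shoots deviated together, so the replicate number was used as a block in a fit of these groups alone. This setting was chosen after the data were seen. No member passed the adjusted p, and 2 members (EXPA4 and EXPA23) had an unadjusted p under 0.05, against 2193 of all 28583 probe sets. In roots the probe set 13495109 of EXPA20 had 3.03, 3.22 and 2.88 in KO1 and 2.66, 2.21 and 2.36 in KO3 (0.63 ± 0.17, adjusted p = 0.997), without overlap. The other probe set of this gene (13479047) did not show the gap. Its KO3 root signals ranged from 2.05 to 2.7 and enclosed those of KO1, which ranged from 2.33 to 2.51. XTH20 differed by -0.73 ± 0.28 between the lines in roots.

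Other genes of wall metabolism were read from lists of hemicellulose, cellulose, lignin, pectin and nucleotide sugar synthesis, wall hydrolases and lyases, and wall-sensing kinases. From these lists 38 genes were matched to a probe set with a single symbol. None of them passed an adjusted p under 0.05 against WT with all arrays. By the looser rule 3 were lower in KO1 shoots (6.92% of all probe sets), 2 higher in KO3 shoots (1.36%), 1 higher in KO1 roots (2.0%) and 2 higher in KO3 roots (2.63%). Without KO1 shoots replicate 1 there were 2 lower in KO1 shoots (4.14%), and 4 higher and 1 lower in KO3 shoots (2.46% and 2.35%). In roots none of the 38 passed in either line when WT roots replicate 1 was left out. When replicate 3 of the WT roots was omitted, the counts were 7 higher and 3 lower in KO1 (4.86% and 4.53%) and 6 higher and 2 lower in KO3 (5.92% and 5.14%). The lowest was GME, a GDP-mannose epimerase that supplies sugars for ascorbate and wall synthesis. It had 5.37, 7.59 and 7.65 in KO1 shoots, 8.03, 7.93 and 7.84 in KO3 shoots, against 8.63, 8.58 and 8.53 in WT shoots, without overlap in either line. Its log2 fold change was -1.71 ± 0.52 for KO1 (limma adjusted p = 0.298). That of KO3 was -0.65 ± 0.52 (adjusted p = 0.999). Both lines passed once KO1 shoots replicate 1 was left out, KO1 with -0.96 ± 0.14 (limma adjusted p = 0.0121) and KO3 with -0.65 ± 0.12 (adjusted p = 0.0442). In roots CCR2, a cinnamoyl-CoA reductase of the lignin pathway, differed by 0.82 for KO1 and 0.72 for KO3. When WT roots replicate 1 was left out, these values were 0.61 for KO1 and 0.51 for KO3. Between the organs 11 of the 38 genes were higher in roots and 3 higher in shoots by the adjusted p and the 2-fold limit on the deposited scale, against 32.5% and 7.69% of all probe sets. With array medians subtracted 7 were higher in roots and 7 in shoots (14.9% and 17.8%), and after quantile normalisation 8 and 3 (14.7% and 12.4%).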

How the data were processed

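RNA from shoots and roots of the KO1, KO3 and WT lines was hybridised to Affymetrix Arabidopsis Gene 1.1 ST arrays. The authors deposited log2 signals per probe set, summarised by RMA in the Transcriptome Analysis Console with the TAIR10 annotation (versions not given in the sources used here) and rounded to 2 decimals. The sources do not say if both organs entered 1 normalisation, and no detection calls were used. The number of arrays limits the precision. Samples were grouped by their labels.

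The deposited log2 values were tested with limma 3.58.1 (lmFit and eBayes, R 4.3.3) over all 28583 probe sets, in 1 fit for the shoots and 1 for the roots for KO lines against WT and KO1 against KO3, and in 1 fit of the 6 groups for organs and for organ-dependent KO effects. Adjusted p-values are Benjamini-Hochberg values over all probe sets. The threshold was 0.05, with 2-fold added for organs. Plants were pooled per sample, and the labels and methods call the replicates biological and independent. Same-numbered samples of KO1 and KO3 shoots deviated from their group means together (correlations of 0.17 to 0.30 in 3 of 3 pairs), so this comparison was also fitted with the replicate number as a block. In no other comparison with 3 or more pairs did every correlation exceed 0.1. Fits were tested on simulated data. Gene symbols came from the annotation of the platform, where 16746 probe sets had 1 symbol, and 16601 of these were matched in RefSeq. NBR1 was found by its locus.

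The members and gene lists were chosen with earlier results of these data known. The genes described are NBR1, members past the looser rule (up to 6 in each direction and comparison), and the members of each family with the highest signal or the largest organ difference. Others were chosen after their values were seen. Alternatives were quantile normalisation, medians of the arrays subtracted, a filter on dim probe sets (set at the 30th percentile), named probe sets only, array weights, an unmoderated linear model, only the groups compared, a replicate block and each array left out.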

Additional observations from a re-analysis of the deposited data

How the results depend on the processing

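No member called with all arrays, between organs or against WT by the looser rule, changed sign in the alternatives run for it. Medians over the members did change sign. That of the organ difference was -0.56 as deposited, 0.27 with array medians subtracted, -0.07 after quantile normalisation and -1.13 without dim probe sets. Those against WT were -0.06 to 0.09 in KO1 shoots (0.02 with all arrays) and -0.01 to 0.10 in KO3 roots (0.04) with 1 array left out. The organ count (20 members with all arrays, 19 to 22 with each array left out), the interaction counts and the counts between KO1 and KO3 kept within 1.5 times in all alternatives run for them, although the split of organ calls moved with the scaling as given in the report. Against WT, the count past adjusted p was 0 in all 4 comparisons. In KO1 shoots it became 2 with array weights and 0 to 3 with 1 array left out (3 without KO1 shoots replicate 1), and in KO3 shoots 2 with only the groups compared and 0 to 1 with 1 array left out. By the unadjusted p and 1.5-fold rule, KO1 shoots (2) gave 8 after quantile normalisation, 8 with array weights, 1 without dim probe sets, 1 with only the groups compared, 0 in the unmoderated model and 0 to 7 with 1 array left out (0 without WT shoots replicate 3, 7 without KO1 shoots replicate 1). KO3 shoots (2) gave 1 in the unmoderated model, 4 with array weights, 4 with only the groups compared and 0 to 4 with 1 array left out (0 without KO3 shoots replicate 2, 4 without KO1 shoots replicate 1). KO1 roots (4) gave 2 after quantile normalisation and 1 to 5 with 1 array left out (1 without KO1 roots replicate 2, 2 without WT roots replicate 1). KO3 roots (4) gave 2 in the unmoderated model and 2 to 7 with 1 array left out (2 without WT roots replicate 1, and 7 when replicate 3 of WT roots was omitted). Where an array was left out, fewer samples were tested. The shares of all probe sets by the looser rule moved too. In KO1 shoots 0.406% were higher and 6.92% lower with all arrays, and 1.79% and 4.14% without KO1 shoots replicate 1. In KO3 shoots these shares were 1.36% and 1.71%, and then 2.46% and 2.35%. For the other settings in this section no shares are given, so those counts are not read as results about the members. KO1 shoots replicate 1 is in neither group of KO3 against WT in shoots, and it enters that test through the spread shared by all shoot lines. The cause of the changes in these counts was not tested for any setting.

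Replicate numbers are shared between groups. Deviations from the group means correlated between same-numbered samples at 0.17 to 0.30 for KO1 and KO3 shoots, against -0.27 to 0.04 between different numbers. They were -0.13 to 0.10 for KO lines and WT in shoots, -0.05 to 0.05 for KO1 and KO3 roots, 0.10 to 0.22 over 4 pairs of KO lines and WT in roots, and 0.03 to 0.24 between shoots and roots of a line. The labels name no shared batch for any of these groups. Only KO1 and KO3 shoots were treated as paired, since all 3 of their same-numbered pairs exceeded 0.1. There the block left 0 members past adjusted p in both fits. The paper states that plants were divided into shoots and roots. Whether same-numbered shoots and roots of a line came from the same plants is not stated, and the organ tests were not paired by plant. With the replicate block, KO1 shoots gave 5 members by the looser rule, and the other counts (0 past adjusted p against WT, 20 between organs) stayed the same.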
